A study of Mus musculus with 6 samples.

Results

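The 42 genes described here belong to 6 families of amino acid transporters in the mouse: Slc1a, Slc3a, Slc7a, Slc36a, Slc38a and Slc43a. They are all the gene symbols of those families found in a table of 21813 symbols, and the rule that picks them uses the name alone and no level. Where a symbol had several transcript rows, the row with the highest mean over the 6 libraries stood for it. The families were measured in pancreatic islets, the clusters of hormone-secreting cells of the pancreas. Islets came from 3 male mice null for Ucn3 and from 3 male wild-type littermates, all adults of 3 months, and each animal gave 1 library. Ucn3 encodes urocortin 3, a peptide that beta cells secrete with insulin. The islets are labelled as of mixed cell type, though the extraction protocol mentions a cell sort. In such material fewer cells of a type and less RNA per cell cannot be told apart. The labels do not state the strain or how the null allele was made, and no other allele or agent is named for either group.

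Amino acids reach the cytosol through families of membrane carriers with overlapping substrates. Slc1a members carry glutamate and aspartate or small neutral amino acids with sodium. Slc7a members are either cationic amino acid carriers, which work alone, or light chains, most of which reach the membrane only when bound to a heavy chain of the Slc3a family. Slc38a members carry glutamine and other neutral amino acids with sodium, and most Slc36a members carry small amino acids with protons. Slc43a members let large neutral amino acids pass down their gradient, except Slc43a3, which carries purine nucleobases. In islets, arginine, glutamine and leucine are known to act on hormone secretion. Slc7a2, a carrier of arginine and lysine, and Slc38a5, a carrier of glutamine, are known as transporters of alpha cells, the glucagon-secreting cells.

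Values are RPKM, read counts scaled by transcript length and by library depth. The depth of the libraries, read from the steps between low values, lay between 42630000 and 51970000 reads. Ucn3 was at 136 to 157 RPKM in the wild-type libraries and at 1.61 to 1.80 RPKM in the null libraries, as labelled. Markers of all 4 hormone cell types were present, with summed levels of 14 alpha cell markers between 6762 and 11020 RPKM. Among the cell type marker lists, the libraries differed most in the one for acinar cells, the enzyme-secreting cells around islets. The mean log2(RPKM + 1) of 33 acinar markers was 6.49, 3.61 and 5.28 in the wild-type animals, in replicate order, against 8.20, 7.49 and 6.22 in the null animals.

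Of the 42 genes, 11 averaged at least 10 RPKM, 14 lay between 1 and 10 RPKM, and 17 averaged under 1 RPKM. The highest was Slc38a10, a little-studied member of the sodium-coupled family, at 51.9 RPKM over the 6 libraries. Slc38a4, an imprinted carrier of neutral and cationic amino acids, followed at 45.5 RPKM. Slc1a1, a carrier of glutamate, aspartate and cysteine, averaged 40.5 RPKM and Slc7a2 averaged 39.2 RPKM. These 4 genes made up 44.4% of the summed RPKM of all 42. Their order was not fixed between animals: Slc38a10 lay above Slc38a4 in 4 of 6 libraries, Slc38a4 above Slc1a1 in 3, and Slc1a1 above Slc7a2 in 3. At the other end, 9 genes averaged under 0.1 RPKM, namely Slc1a2, Slc1a3, Slc1a6, Slc1a7, Slc7a9, Slc7a12, Slc7a13, Slc36a3 and Slc43a1. Each of these 9 had at most 27 estimated reads in any library, and Slc7a9 was at 0 in Ucn3 null replicate 3. The 25 genes that averaged at least 1 RPKM were tested.

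**Figure D1:**
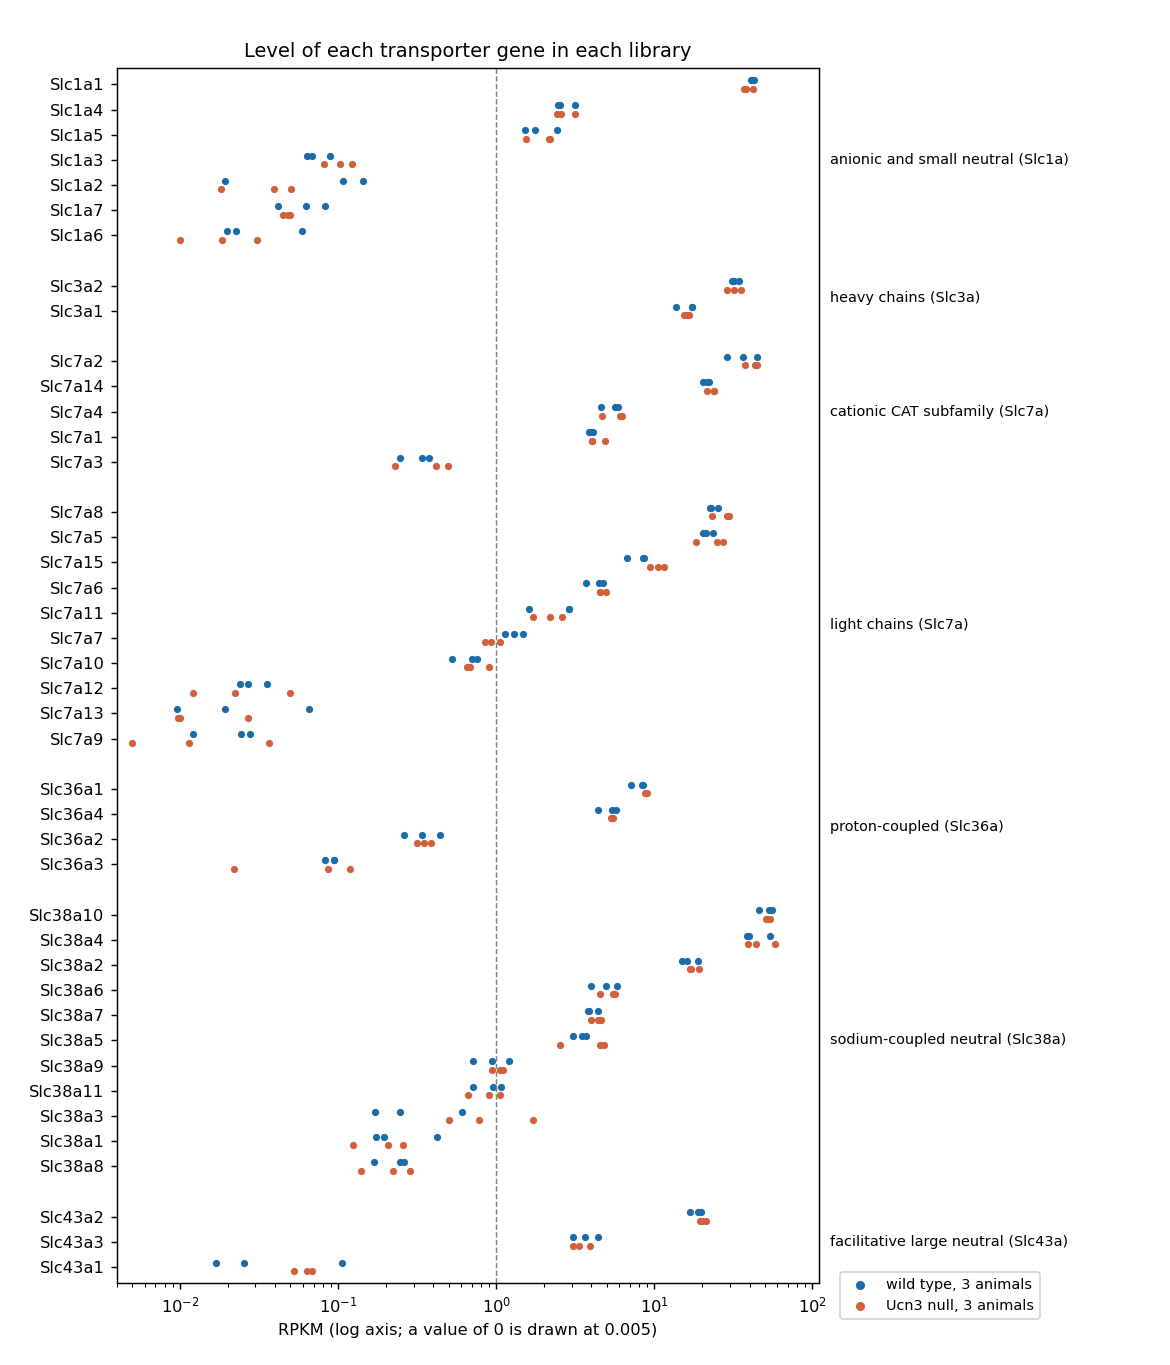
RPKM on a log axis of the 42 transporter genes in each library, ordered by family and level, with 3 wild-type and 3 Ucn3 null animals as points; a value of 0 is drawn at 0.005 and the dashed line marks 1 RPKM. Most families span from a member above 10 RPKM to one below 0.5 RPKM, and the points of the 2 genotypes lie close together for most genes.

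The comparison between genotypes asked whether loss of Ucn3 went with other levels of these carriers. None of the 25 tested genes differed between null and wild-type islets at an adjusted p of 0.05 in limma, a linear model fitted to log2(RPKM + 1) of all tested genes, and 2 of them had an unadjusted p under 0.05. Over all 12652 tested genes the same rule called 2 genes, or 0.0158%, and 9.36% had an unadjusted p under 0.05. The lowest adjusted p among the transporters was 0.486. Their differences, null minus wild type on the log2 scale, ran from -0.24 for Slc7a7 to 0.36 for Slc7a15, with a median of 0.08 against -0.03 over all tested genes. Of the 25, 20 differences were positive, or 80.0%, against 38.3% of all genes. With median-ratio scaling these shares were 21 of 25 genes against 52.1%, and with the acinar marker mean in the model they were 16 of 25 against 44.7%. That mean was itself higher in most null libraries, so the model cannot fully tell genotype from acinar content. With a library left out, the fewest positive differences were 15 of 25 against 27.8%, without Ucn3 null replicate 3. The most were 21 of 25 against 47.4%, without Ucn3 null replicate 1. The summed RPKM of the 42 genes came to 404, 376 and 385 for the wild-type animals, in replicate order, against 401, 405 and 422 for the null animals, so the groups overlapped.

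The genotypes did not overlap for 3 of the 25 genes, or 12%, where 15.2% of all tested genes had groups that did not overlap. Slc7a15 and Slc36a1 were above wild type, as were 1.9% of all genes, and Slc7a7 was below, as were 13.2%. With median-ratio scaling Slc7a1, Slc7a8 and Slc7a14 joined them, making 6 of 25 genes against 16.1% of all genes. Fewer libraries leave less room for overlap. The count was 9, 3 and 7 when wild type replicate 1, 2 or 3 was left out, where 32.3%, 21.0% and 23.6% of all genes did not overlap. It was 8, 4 and 5 when null replicate 1, 2 or 3 was left out, where 27.4%, 18.6% and 29.1% of all genes did not overlap.

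**Figure D2:**
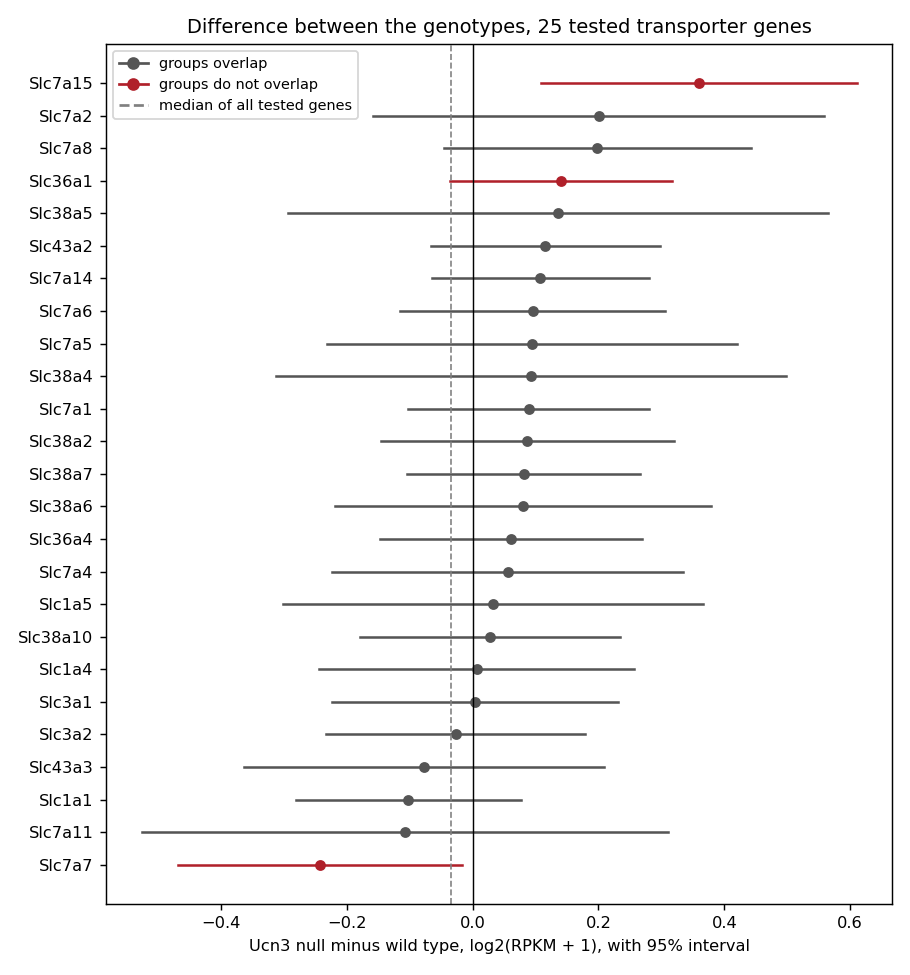
Difference between Ucn3 null and wild-type islets in log2(RPKM + 1) for the 25 tested transporter genes, with the 95% interval from limma as a line; red marks the 3 genes whose groups do not overlap and the dashed line is the median of all tested genes, -0.03. Slc7a15 and Slc7a7 are the genes whose intervals, which are not corrected for the number of genes tested, do not reach 0.

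Among the cationic carriers, Slc7a2 was the highest, with 54.9% of the summed RPKM of its 5 subfamily members. In replicate order, the levels were 44.7, 29.0 and 36.3 RPKM for wild type against 44.6, 37.3 and 43.4 RPKM for null animals. The highest and the lowest library were both wild type, so the null values lay within the wild-type range. The log2 difference of Slc7a2 was 0.20 (SE 0.15, limma adjusted p = 0.724), with a 95% interval from -0.16 to 0.56. It was -0.11 with the acinar marker mean in the model. The gene makes 2 proteins from a pair of alternative exons, known to differ in their affinity for arginine. Those exons, read from GENCODE M21 (build GRCm38, plus strand), are coding, and each is exon 7 of its transcript. They are shown because they are the sequence that tells the 2 isoforms apart, and capitals mark the bases that differ between them in a global alignment.
Slc7a2 exon 7, downstream copy, chr8:40908398-40908534: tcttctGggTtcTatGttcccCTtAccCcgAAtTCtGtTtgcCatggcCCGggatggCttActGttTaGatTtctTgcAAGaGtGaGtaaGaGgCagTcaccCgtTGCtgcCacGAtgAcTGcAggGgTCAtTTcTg
Slc7a2 exon 7, upstream copy, chr8:40908056-40908195: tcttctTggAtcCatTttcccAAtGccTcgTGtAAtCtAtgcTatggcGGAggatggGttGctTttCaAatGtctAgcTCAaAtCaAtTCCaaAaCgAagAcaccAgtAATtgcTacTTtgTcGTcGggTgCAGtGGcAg
The exons are 137 and 140 bases long and share 84 aligned bases. The table has a row for each isoform, and the values of the one with the upstream copy were between 0.9995 and 0.9996 of those of the other in every library. The rows thus tell the isoforms apart in no library, and the Slc7a2 level given is that of the row with the downstream copy.

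None of the other cationic subfamily members passed the test. Slc7a14, a little-studied member, stood at 21.5, 20.3 and 22.2 RPKM among wild-type animals against 21.4, 23.9 and 23.9 RPKM among nulls. Null replicate 1 lay between the wild-type values while the other null libraries were above them, and the log2 difference was 0.11 (SE 0.07, limma adjusted p = 0.693). Slc7a4 was at 5.37 ± 0.67 and 5.63 ± 0.86 RPKM, and Slc7a1, the arginine and lysine carrier found in most cell types, at 3.97 ± 0.12 and 4.30 ± 0.49 RPKM for the wild-type and the null group (SD, n = 3 each). Slc7a1 was thus far below Slc7a2 in each of the 6 libraries. Slc7a3, the third classical cationic carrier, ranged from 0.23 to 0.50 RPKM over the 6 libraries and was not tested.

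Both heavy chains were well expressed. Slc3a2, also known as CD98, is the partner of the light chains Slc7a5, Slc7a6, Slc7a7, Slc7a8, Slc7a10 and Slc7a11. It held 31.2, 34.4 and 32.0 RPKM among wild-type animals, in replicate order, against 29.0, 31.8 and 35.2 RPKM among nulls. The null libraries were the lowest and the highest of the 6, and the log2 difference was -0.03 (95% interval from -0.23 to 0.18, limma adjusted p = 0.952). The summed RPKM of its 6 light chains was 1.70, 1.59 and 1.70 times that of Slc3a2 in wild type and 1.71, 1.98 and 1.87 times in null islets. The ratios of the null libraries were all above those of wild type, though null replicate 1 was hardly above 2 of them. This ratio was not tested. Slc7a5 and Slc7a8 together made up 81.5% to 86.9% of that sum in the 6 libraries.

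Slc7a8, a carrier of large and small neutral amino acids, was the highest light chain. Levels of 22.9, 22.5 and 25.3 RPKM stood in the wild-type animals, in replicate order, against 23.3, 29.7 and 28.9 RPKM in the nulls. Null replicates 2 and 3 were above every wild-type library and null replicate 1 was not, with a log2 difference of 0.20 (SE 0.10, limma adjusted p = 0.595). Slc7a5, a carrier of large neutral amino acids such as leucine, was at 21.7 ± 1.67 RPKM among wild-type animals against 23.5 ± 4.55 RPKM among nulls (SD, n = 3 each). Slc7a8 exceeded Slc7a5 in 5 of 6 libraries. Slc7a6, which exchanges cationic for neutral amino acids, was at 4.31 ± 0.54 and 4.66 ± 0.27 RPKM, and Slc7a10 ranged from 0.52 to 0.91 RPKM over the 6 libraries.

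Across the 6 libraries Slc7a5 varied with Slc3a2 in log2(RPKM + 1), with Pearson r = 0.87 (exact permutation p = 0.036, adjusted p = 0.18 over 5 light chains) and Spearman rho = 0.83 (exact permutation p = 0.058, adjusted p = 0.29). Without the 2 libraries farthest from the median of Slc3a2, r was 0.45, so the relation rests on those libraries. For Slc7a6, Slc7a7, Slc7a8 and Slc7a11 the r with Slc3a2 lay between -0.15 and 0.59. None of the 5 relations passed the correction.

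**Figure D3:**
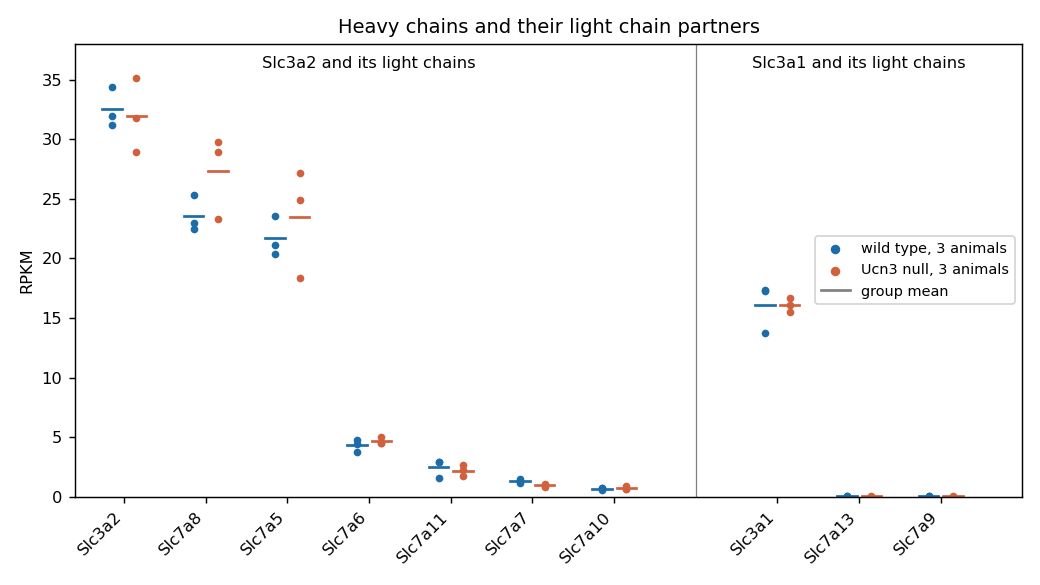
RPKM of the heavy chains Slc3a2 and Slc3a1 and of the light chains counted with each, with each animal as a point and the mean of each genotype as a bar. Slc7a8 and Slc7a5 make up most of the light chains shown for Slc3a2. Slc7a9 and Slc7a13, shown for Slc3a1, lie near 0 beside a heavy chain at 13.7 to 17.4 RPKM. Slc7a15 is not shown.

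The other heavy chain, Slc3a1, is known from kidney and gut, where it pairs with Slc7a9 to take up cystine and cationic amino acids, and with Slc7a13. It held 13.7, 17.4 and 17.2 RPKM among wild-type animals against 16.1, 15.5 and 16.7 RPKM among nulls, so the groups overlapped. In the same libraries Slc7a9 and Slc7a13 together reached at most 0.093 RPKM. In read numbers this was 1329 to 1902 reads of Slc3a1 per library, at most 3 reads of Slc7a9 and at most 6 reads of Slc7a13. The high level of the heavy chain and the near absence of Slc7a9 and Slc7a13 were thus seen in each animal of both genotypes. Slc7a15, grouped here with the light chains, was counted with neither heavy chain and stood at 6.76 to 11.4 RPKM. Its partner was not examined, so the values of Slc7a9 and Slc7a13 do not show that Slc3a1 lacked a light chain.

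Slc7a15 had the smallest p of the 25 genes. It is also named Arpat, and little is known of it in islets. The wild-type animals held 8.60, 6.76 and 8.54 RPKM, in replicate order, and the null animals 9.43, 10.6 and 11.4 RPKM. Every null library was above every wild-type library, by a ratio of means of 1.32, and the difference did not pass over all genes (log2 difference 0.36, SE 0.11, limma adjusted p = 0.486). The acinar marker mean was also higher in most null libraries, and with it in the model the log2 difference of Slc7a15 was 0.28 (SE 0.16, limma adjusted p = 0.962). The table has a second row for this symbol, at 0.40 to 0.80 RPKM, and the level given is that of the higher row only.

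Slc7a7, which exports cationic amino acids and is known from epithelia and macrophages, was the gene with the largest negative difference. In replicate order, the levels were 1.47, 1.30 and 1.14 RPKM for wild type against 0.92, 0.85 and 1.05 RPKM for null animals, about 87 to 133 reads per library. All null values were below all wild-type values, and the difference did not pass over all genes (log2 difference -0.24, SE 0.10, limma adjusted p = 0.516). Of the macrophage and dendritic cell markers, 9 of 11 tested ones had a negative difference, where 38.3% of all tested genes had a positive one. The groups did not overlap for 1 of the 11. The summed level of all 14 listed was 62.3 to 101 RPKM among wild-type animals against 53.2 to 76.3 RPKM among nulls, so the groups overlapped. Null replicate 2, the lowest library for Slc7a7, held the highest of the null sums. None of the 14 markers was at 0 in all 6 libraries. Ductal markers lay lower too, with 12 of 12 tested ones negative. The summed level of the 14 listed ductal markers was 338 to 443 RPKM in wild type and 276 to 336 RPKM in null islets. The part of either cell type in the Slc7a7 values was not tested.

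Slc7a11, the light chain that exchanges cystine for glutamate, is a known target of ATF4, the transcription factor of the amino acid response. It had the largest relative spread of the 25 genes, with a coefficient of variation of 24.7% over the 6 libraries against a median of 12.4% for the 25 and 9.57% for all tested genes. Levels of 2.90, 2.88 and 1.60 RPKM stood in the wild-type animals, in replicate order, against 1.71, 2.20 and 2.62 RPKM in the nulls. The lowest library of each genotype was near the other's, and the groups overlapped (log2 difference -0.11, limma adjusted p = 0.896). The ATF4 element was looked for as TGATGNAA on both strands in the 250 bases before each start site, from RefSeq on build GRCm38.p6, for the 31 of 42 genes with an entry. It was found for 2 of these genes, Slc7a11 and Slc7a7, where 3.91% of all genes with an entry held it, and in 3 of their 42 windows, where 3.45% of all 32851 windows held it. The Slc7a11 window and 1 of the 2 Slc7a7 windows with a match are shown for the position of the matches, in capitals, read along the gene on the minus strand.
Slc7a11, chr3:50443614-50443863: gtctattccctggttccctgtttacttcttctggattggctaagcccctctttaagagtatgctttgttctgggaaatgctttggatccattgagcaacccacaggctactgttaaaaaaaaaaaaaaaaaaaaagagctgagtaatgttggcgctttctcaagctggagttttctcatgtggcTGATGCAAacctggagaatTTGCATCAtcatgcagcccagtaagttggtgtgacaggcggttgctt
Slc7a7, chr14:54417703-54417952: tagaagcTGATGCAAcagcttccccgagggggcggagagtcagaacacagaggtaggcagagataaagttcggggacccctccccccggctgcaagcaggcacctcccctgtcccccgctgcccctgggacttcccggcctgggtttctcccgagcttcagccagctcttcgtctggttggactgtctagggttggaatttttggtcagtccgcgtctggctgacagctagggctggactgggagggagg
The Slc7a11 window holds 2 matches on opposite strands, whose first bases lie 66 and 47 bases before the start site. Of all windows, 13 or 0.0396% held 2 or more. Slc7a7 has 5 annotated start sites, and 2 of them have a match, at different positions. A match is a stretch of letters and no measure of binding.

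In the Slc1a family, Slc1a1 gave 89.3% of the summed level of 7 members. The wild-type animals held 42.9, 42.4 and 40.7 RPKM, in replicate order, and the null animals 36.8, 38.1 and 42.3 RPKM. Null replicates 1 and 2 were below all wild-type libraries and null replicate 3 was not (log2 difference -0.10, SE 0.08, limma adjusted p = 0.721). The neutral amino acid carriers Slc1a4 and Slc1a5 were at 2.71 ± 0.37 and 1.91 ± 0.48 RPKM among wild-type animals against 2.72 ± 0.39 and 1.96 ± 0.37 RPKM among nulls (SD, n = 3 each). Their log2 differences, 0.01 and 0.03, changed sign when single libraries were left out. The glutamate carriers of glia and neurons, Slc1a2, Slc1a3, Slc1a6 and Slc1a7, had no value above 0.143 RPKM, so among the glutamate carriers of this family Slc1a1 alone was above 1 RPKM.

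The Slc38a family had the highest summed level, 131 RPKM over its 11 members. Slc38a10 held 45.8, 55.4 and 53.1 RPKM among wild-type animals against 50.8, 54.0 and 52.0 RPKM among nulls, all within the wild-type range. Slc38a4 held 53.8, 38.5 and 39.7 RPKM among wild-type animals against 58.0, 43.9 and 39.4 RPKM among nulls. Wild type replicate 1 and null replicate 1 were the high libraries, so the spread lay within each genotype (log2 difference 0.09, SE 0.17, limma adjusted p = 0.909). With the acinar marker mean in the model the difference of Slc38a4 was -0.32 (SE 0.15, limma adjusted p = 0.962). Slc38a2, a system A carrier known to be induced when amino acids are scarce, was at 16.7 ± 2.06 and 17.7 ± 1.31 RPKM for the wild-type and the null group (SD, n = 3 each). Slc38a1, its close relative in many tissues, did not exceed 0.421 RPKM.

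Slc38a1, Slc38a2 and Slc38a4 follow each other on chromosome 15 with no other protein-coding gene between them in RefSeq, yet averaged 0.23, 17.2 and 45.5 RPKM. The order was the same in all 6 libraries. On chromosome 11 the neighbours Slc36a3, Slc36a2 and Slc36a1 showed a like range, at 0.083, 0.35 and 8.41 RPKM.

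Slc38a5 was far lower than Slc7a2, the other carrier known from alpha cells. In replicate order, the levels were 3.06, 3.71 and 3.50 RPKM for wild type against 2.54, 4.54 and 4.83 RPKM for null animals, about 244 to 420 reads per library. The null libraries held both the lowest and the 2 highest values, with a coefficient of variation of 23.6% over the 6 libraries. The log2 difference was 0.14 (SE 0.18, limma adjusted p = 0.865), with a 95% interval from -0.29 to 0.57. With the acinar marker mean in the model it was 0.47 (SE 0.22, limma adjusted p = 0.962), and without Ucn3 null replicate 1 it was 0.36 (limma adjusted p = 0.495). It shrank to 0.04 without Ucn3 null replicate 2 and to 0.0034 without Ucn3 null replicate 3. Of 14 alpha cell markers 11 were tested and 6 had a positive difference. Their mean log2(RPKM + 1) was 5.21, 5.05 and 5.15 in wild type and 5.03, 5.15 and 5.33 in null islets, so null replicate 1, the lowest for Slc38a5, was also the lowest for alpha cell markers. Over the 6 libraries the r with that mean was 0.63 for Slc38a5 (exact permutation p = 0.17, adjusted p = 0.34) and 0.44 for Slc7a2 (exact permutation p = 0.40, adjusted p = 0.40). The rho was 0.49 (exact permutation p = 0.36, adjusted p = 0.66) and 0.26 (exact permutation p = 0.66, adjusted p = 0.66). Without the 2 libraries farthest from the median of the alpha markers, r was -0.37 for Slc38a5 and 0.99 for Slc7a2, over 4 libraries each.

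Slc38a3, which carries glutamine and histidine, averaged 0.67 RPKM and so was not tested, and is described because its highest and lowest values lay farthest apart among the genes above 0.1 RPKM. Levels of 0.61, 0.17 and 0.25 RPKM stood in the wild-type animals, in replicate order, against 1.71, 0.78 and 0.50 RPKM in the nulls, from about 20 to 218 reads. The highest library was 10.02 times the lowest, and the groups overlapped at wild type replicate 1. The order of the 6 libraries was the same as that of the acinar marker mean, with Pearson r = 0.91 (exact permutation p = 0.015, adjusted p = 0.34 over 26 genes) and Spearman rho = 1.0. The exact permutation p of this rho, 0.0028, is the smallest that 6 libraries allow, and adjusted over the 26 genes it was 0.072. The 26 are the 25 tested genes and Slc38a3. For the 25, r ran from -0.72 for Slc1a1 (exact permutation p = 0.12) to 0.84 for Slc36a1 (exact permutation p = 0.033), both at an adjusted p of 0.34. The largest rho was 0.89, for Slc38a4 (exact permutation p = 0.033, adjusted p = 0.43). None of the 26 relations passed the correction. Slc38a3 was picked for its spread among 17 genes under 1 RPKM, and the adjustment does not count the others, so it is too lenient. Without the 2 libraries farthest from the median acinar mean, r was 0.98. All 33 tested acinar markers had a positive difference, and none of the 34 listed was at 0 in all 6 libraries. The summed level of the 34 was 793 to 8418 RPKM among wild-type animals against 6335 to 30600 RPKM among nulls. The part of acinar cells in the Slc38a3 values was not tested further. Within genotypes there are only 3 libraries, so no r was computed there. With no filter on low values, the log2 difference of Slc38a3 was 0.54 (SE 0.23, limma adjusted p = 0.59).

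**Figure D4:**
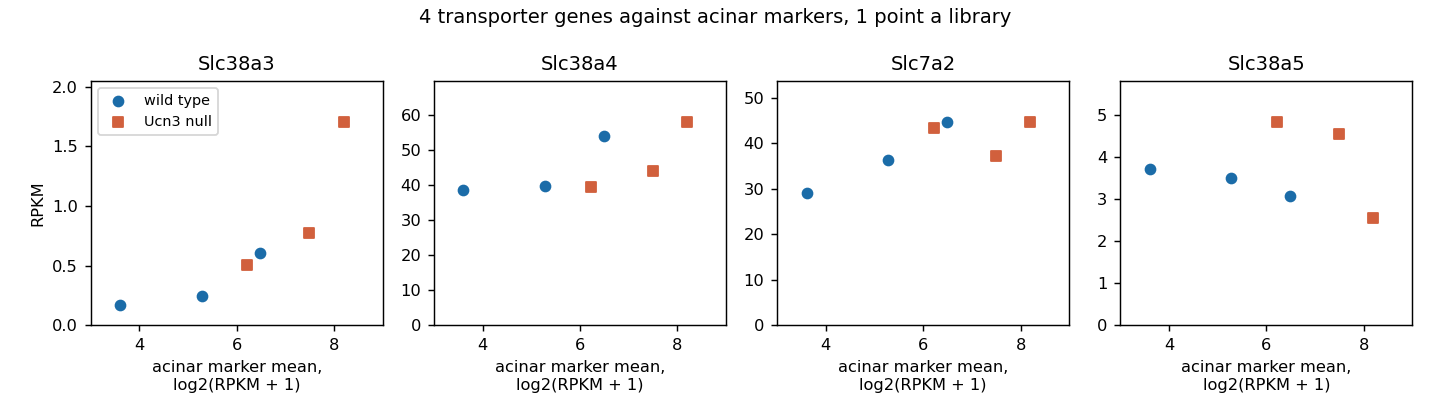
RPKM of Slc38a3, Slc38a4, Slc7a2 and Slc38a5 in each library against the mean log2(RPKM + 1) of 33 acinar markers. Slc38a3 rises from 0.17 to 1.71 RPKM in the order of the acinar mean, while Slc38a5 has its lowest value, 2.54 RPKM, at the highest acinar mean.

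The other tested Slc38a genes were Slc38a6, at 4.91 ± 0.93 and 5.22 ± 0.61 RPKM, and Slc38a7, a lysosomal glutamine carrier, at 4.03 ± 0.33 and 4.31 ± 0.32 RPKM for the wild-type and the null group (SD, n = 3 each). Slc38a9, the lysosomal arginine sensor that signals to the growth kinase mTORC1, averaged 0.99 RPKM, just under the level for testing, with 0.71 to 1.21 RPKM over the 6 libraries. Slc38a11 ranged from 0.66 to 1.07 RPKM and Slc38a8 from 0.14 to 0.29 RPKM. All 6 tested genes of the family had positive differences, the largest being 0.14 for Slc38a5, but those of Slc38a4 and Slc38a6 turned negative with the acinar marker mean in the model (-0.32 and -0.13). Those of Slc38a10, Slc38a4 and Slc38a6 also turned negative when a single library was left out.

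In the Slc36a family, Slc36a1, which exports amino acids from lysosomes, held 8.32, 7.13 and 8.44 RPKM among wild-type animals against 8.84, 8.78 and 8.94 RPKM among nulls. All null values were above all wild-type values, and the difference did not pass over all genes (log2 difference 0.14, SE 0.08, limma adjusted p = 0.604). It was 0.04 with the acinar marker mean in the model and 0.07 without wild type replicate 2, the lowest library. Slc36a4 was at 5.16 ± 0.67 and 5.40 ± 0.09 RPKM for the wild-type and the null group (SD, n = 3 each), and Slc36a2 and Slc36a3 had no value above 0.444 RPKM.

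In the Slc43a family, Slc43a2, a facilitative carrier of leucine and other large neutral amino acids, held 18.9, 16.9 and 19.8 RPKM among wild-type animals against 19.96, 21.1 and 19.4 RPKM among nulls. Null replicate 3 lay below wild type replicate 3, and the log2 difference was 0.12 (SE 0.08, limma adjusted p = 0.688). Slc43a3, which carries purine nucleobases, was at 3.70 ± 0.68 and 3.43 ± 0.44 RPKM for the wild-type and the null group (SD, n = 3 each). Slc43a1, a close relative of Slc43a2, ranged from 0.017 to 0.11 RPKM, so Slc43a2 alone made up 84.2% of the summed level of the family.

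Genes of related pathways did not pass either. The base for each of these lists is the share over all tested genes. There 0.0158% passed, 9.36% had an unadjusted limma p under 0.05 and 38.3% had a positive difference. Groups did not overlap for 15.2% of them. Of 32 further carriers of amino acids and related molecules 17 were tested and 0 passed limma's adjusted threshold in either direction (2 at an unadjusted p under 0.05), with 12 positive differences and a median of 0.03. The glycine carrier Slc6a9 was at 1.36 ± 0.10 and 1.74 ± 0.15 RPKM for the wild-type and the null group (SD, n = 3 each), and the groups did not overlap. The peptide carrier Slc15a2 was at 2.59 ± 1.15 and 3.75 ± 0.65 RPKM. Of 24 genes of the amino acid response 23 were tested and 0 passed (1 unadjusted), with 11 positive differences and a median of -0.01. Nupr1, a stress-response cofactor, stood at 43.9 ± 6.04 and 63.7 ± 8.32 RPKM (limma adjusted p = 0.486), Ddit3 at 74.6 ± 47.9 and 99.7 ± 24.1 RPKM, and the tryptophan tRNA ligase Wars at 30.6 ± 1.58 and 33.3 ± 3.21 RPKM for the wild-type and the null group (SD, n = 3 each). The groups did not overlap for Nupr1 and overlapped for Ddit3 and Wars.

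Of 28 genes of amino acid sensing at mTORC1, 25 were in the table and tested, and 0 passed (2 unadjusted), with 11 positive differences. Lamtor2, a subunit of the lysosomal scaffold, was at 29.0 ± 2.98 and 24.3 ± 1.77 RPKM, and Mios and Seh1l, subunits of the GATOR2 complex, at 4.28 ± 0.20 and 3.44 ± 0.61 RPKM and at 12.8 ± 0.87 and 11.6 ± 0.61 RPKM for the wild-type and the null group (SD, n = 3 each). The groups did not overlap for Mios and overlapped for Lamtor2 and Seh1l. Of 20 enzymes of glutamate, glutamine and arginine metabolism 17 were tested and 0 passed (2 unadjusted), with 7 positive differences and a median of -0.07. Arg1, which splits arginine into ornithine and urea, was at 13.8 ± 1.91 RPKM among wild-type animals against 7.89 ± 0.99 RPKM among nulls (SD, n = 3 each), with groups that did not overlap (log2 difference -0.73, SE 0.12, limma adjusted p = 0.351). Gclm, a subunit of the enzyme that starts glutathione synthesis, was at 76.5 ± 3.37 and 64.1 ± 3.65 RPKM in the same order, also with groups that did not overlap. In the same libraries all 33 tested acinar markers had positive differences, and 5 of 7 tested delta cell markers had negative ones. Over all tested genes 38.3% of the differences were positive. The summed level of the 8 listed delta cell markers was 1843 to 2514 RPKM among wild-type animals against 778 to 1197 RPKM among nulls. The part of either cell type in these values was not tested.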

How the data were processed

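RNA of whole islets was sequenced from 3 Ucn3 null and 3 wild-type animals, with libraries made with a TruSeq kit, per the labels' protocols, which also mention a cell sort. The authors deposited RPKM values, 1 row per RefSeq transcript, per the file headers. STAR, bedtools and DESeq are named with no role, and the build mm9, per the submitters' processing notes. How reads shared between transcripts, overlapping genes or strands were counted is not stated by the labels or headers. Of 28129 rows, 118 held no usable value in 1 or more columns; 28011 rows cover 21813 symbols. Genes averaging at least 1 RPKM (12652) were fitted with limma 3.58.1 in R 4.3.3 on log2(RPKM + 1), genotype as the only term, eBayes with a mean trend, Benjamini-Hochberg adjustment over all genes and a threshold of 0.05. Fold changes are on the log2(RPKM + 1) scale, which understates the change of low genes. The fit was tested on simulated data. The p-values measure the spread between 3 animals a group; the labels give no replicate numbers and do not say which animals shared a litter, so replicates were numbered in accession order within a group and pair no animals. Read numbers are estimates from steps between low RPKM values and GENCODE M21 transcript lengths, with 76.0% to 77.0% of low values whole within 0.1 read. Correlations used scipy 1.17.1 and figures matplotlib 3.10.9. The rule for the members uses names only, but these families and the other lists were chosen with earlier results of these data known. By rule, every tested member is named, with all 6 values for Slc7a2, Slc38a5, the highest member of each role group, the 8 smallest p and all members without overlap, and up to 3 genes of a context list. Some genes that this rule picks from the context lists are not reported here. The 6 values of Slc3a1, Slc7a11, Slc38a3 and Slc38a4 were added after they were seen. Printed coordinates and sequences are on GRCm38, not on the build of the table, whose own coordinates were not used.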

Additional observations from a re-analysis of the deposited data

How the results depend on the processing

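With 3 animals a group, 12 alternatives were run for each of the 25 tested transporters: a pseudocount of 0.1, no filter, the mean of transcript rows, median-ratio scaling, no mean trend, the acinar marker mean as a covariate, and each of the 6 libraries left out. None was called in any of the 300 fits of a transporter under an alternative (lowest limma adjusted p 0.304), and 272 kept the direction. Over all genes the calls were 4 with no filter, 1 with the acinar covariate and 1 to 5 with a library left out, against 2. The 5 came from leaving out Ucn3 null replicate 1, and the 1 from leaving out its replicate 2. Transporters without overlap were 6 of 25 with median-ratio scaling (16.1% of all genes) and 3 to 9 with a library left out (18.6% to 32.3% of all genes). Signs turned with the acinar covariate for Slc38a4 (-0.3185), Slc7a2 (-0.107), Slc3a2 (0.139), Slc36a4 (-0.0982), Slc38a6 (-0.1285), Slc7a6 (-0.0088), Slc7a11 (0.0642) and Slc1a5 (-0.0862), and with median-ratio scaling for Slc3a2 (0.0198). The covariate also made positive differences larger, most for Slc38a5 (0.474), Slc7a5 (0.3747), Slc7a4 (0.3133) and Slc1a4 (0.2344), each at a limma adjusted p of 0.962. The acinar marker mean was higher in most null libraries, so the fit with it cannot fully tell genotype from acinar content. The cause was not tested. With a library left out, signs turned for 12 genes: Slc38a10 (from -0.0527 to 0.0818), Slc38a4 (from -0.0642 to 0.2436), Slc3a2 (from -0.0955 to 0.0407), Slc7a5 (from -0.0154 to 0.253), Slc3a1 (from -0.1003 to 0.0591), Slc7a4 (from -0.0326 to 0.1677), Slc36a4 (from -0.0302 to 0.1227), Slc38a6 (from -0.0399 to 0.1884), Slc43a3 (from -0.1818 to 0.0285), Slc1a4 (from -0.0776 to 0.0868), Slc7a11 (from -0.3009 to 0.0015) and Slc1a5 (from -0.0644 to 0.1602). Slc7a15 stayed between 0.26 and 0.43, Slc7a7 between -0.30 and -0.19, Slc7a2 between 0.05 and 0.35 and Slc38a5 between 0.0034 and 0.36. No paired analysis was possible because the labels give no replicate numbers and name no litters.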
